A study of Mus musculus with 12 samples.

Results

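The 10 genes described here encode the histone methyltransferase DOT1L, its cofactors, and subunits of the super elongation complex. They are *Dot1l*, *Mllt1*, *Mllt3*, *Mllt6*, *Mllt10*, *Aff1*, *Aff3*, *Aff4*, *Ell* and *Ell2*, chosen by name as transcription elongation genes and as partners in fusions of *KMT2A* in leukaemia. All 10 were among the 18911 genes of the count table and among the 17076 that passed the filter on low counts. RNA was sequenced from mouse neuronal progenitor cells (mNPCs) that were cultured from the hippocampus of newborn (P0) pups, with FGF-2 and EGF in the medium. The 12 libraries cover 4 genotypes on a C57BL/6J background with 3 libraries each. Kmt2a+/+ cells carry no cassette and no Cre. Kmt2a+/LSL cells are heterozygous for a loxP-stop-loxP (LSL) cassette in the first intron of *Kmt2a*, which ends the transcript of that allele early. Nes-Cre+/- Kmt2a+/LSL cells carry the same cassette and a Cre recombinase under the nestin promoter, which is active in the developing nervous system and can remove the stop. Nes-Cre+/- Kmt2a+/+ cells carry the Cre alone. The labels number the replicates but do not say whether each is a separate culture or pup. The study's methods call them biological replicates, and the p-values measure the spread between these libraries.

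RNA polymerase II often halts shortly after it starts a gene, and its release into productive elongation depends on the kinase P-TEFb. The super elongation complex joins P-TEFb to an AFF scaffold protein, an ELL factor that raises the rate of elongation, and ENL or AF9, the YEATS-domain readers of acetylated histones that *Mllt1* and *Mllt3* encode. ENL and AF9 can instead bind DOT1L, which methylates lysine 79 of histone H3 on transcribed genes together with AF10 (*Mllt10*) and AF17 (*Mllt6*). KMT2A itself methylates lysine 4 of histone H3 at promoters, and in leukaemia its N-terminal part becomes fused to ENL, AF9, AF10, AF17 or an AFF protein. No fusion is part of this mouse model, and the question here is whether the level of the partner genes follows the dose of *Kmt2a*.

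The targeted gene was measured as a check of the labels. Its counts are summed over transcripts, so full-length and truncated *Kmt2a* transcripts are not told apart. The paper reports a shift from the full-length to a truncated transcript in Kmt2a+/LSL. With its own test, the paper did not find *Kmt2a* among its significant genes. Normalized counts of *Kmt2a* were 6916, 7194 and 6720.5 in Kmt2a+/+, 3972, 3979.5 and 3991 in Kmt2a+/LSL, 6777, 7427 and 7167 with the Cre alone (Nes-Cre+/- Kmt2a+/+), and 6535, 6814 and 6205 with Cre and cassette (Nes-Cre+/- Kmt2a+/LSL). Every Kmt2a+/LSL library lay below every library of the other 3 genotypes. The log2 fold change of *Kmt2a* was -0.80 (SE 0.12, 95% interval -1.08 to -0.53) in Kmt2a+/LSL against Kmt2a+/+ and 0.71 (SE 0.12, 95% interval 0.44 to 0.98) in Nes-Cre+/- Kmt2a+/LSL against Kmt2a+/LSL. Adjusted over all genes with edgeR's quasi-likelihood test, p was 0.281 and 1, while DESeq2's Wald test gave adjusted p-values of 6.09e-18 and 1.24e-12. Without Kmt2a+/+ replicate 1, edgeR's adjusted p for the former was 0.0437. Over all alternatives, DESeq2 and its empirical null included, the adjusted p ranged from 1.07e-29 to 1 for the former and from 6.09e-63 to 1 for the latter, with both lowest values from the empirical null. In a two-sided exact permutation test of 3 libraries against 3, p was 0.1 for each, the smallest value that this design allows.

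Library totals ran from 18280008 to 28596919 estimated counts, at which 3 counts equal 0.105 to 0.164 CPM (counts scaled to library size), a limit that covers counting error only. Kmt2a+/+ replicate 1 was the shallowest library and stood apart. Its log2 CPM over the tested genes correlated with the other 11 libraries at a median Pearson r of 0.918, against 0.969 to 0.982 for each of those. It held the lowest of the 12 values for 5 of the 10 genes and the highest for 3, where 34.1% and 30.0% of all tested genes had their lowest and highest value there. The comparisons of the 10 genes with Kmt2a+/+ are therefore given with and without it. The fit of all 12 libraries shares its estimate of spread between comparisons, so this library also enters the SEs of comparisons without Kmt2a+/+. The summed level of 6 neural progenitor markers was 12699 CPM in this library and 5300 to 7882 CPM in the others, and 4 astrocyte markers summed to 331 CPM against 577 to 1496 CPM. The 4 neuronal markers summed to 1898 CPM there and to 1011 to 1705 CPM elsewhere, and the 4 oligodendrocyte lineage markers to 414 CPM against 719 to 1153 CPM. Lists of microglial, endothelial and fibroblast markers reached at most 1.73 CPM in any library, with *Aif1*, *Csf1r*, *Cdh5*, *Dcn* and *Lum* at 0 in at least 1 library. In such bulk RNA, fewer cells of a type and less RNA per cell cannot be told apart.

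All 10 genes were transcribed in the progenitors, at levels that spanned a wide range. The level per length, in CPM per kb of merged exon sequence and as mean ± SD over 12 libraries, was highest for *Aff4* at 30.0 ± 2.27, followed by *Mllt1* at 19.2 ± 4.62. *Aff4* encodes a core scaffold of the super elongation complex, and it was far above the other AFF genes, with 8.99 ± 0.502 for *Aff1* and 0.672 ± 0.400 for *Aff3*. The methyltransferase gene *Dot1l* stood at 12.6 ± 3.06, and its cofactor genes *Mllt10* and *Mllt6* at 11.1 ± 2.37 and 9.31 ± 3.01. Of the ELL factors, *Ell* stood at 8.16 ± 1.92 and *Ell2* at 2.02 ± 0.729. Among the YEATS genes, *Mllt3* with 3.10 ± 1.03 was far below *Mllt1*. From *Dot1l* through *Mllt10*, *Mllt6* and *Aff1* to *Ell*, each mean differed from the next by less than the larger SD of the pair, so these neighbours were not separated. The other neighbouring means differed by more than either SD. Without Kmt2a+/+ replicate 1, *Dot1l* at 13.4 ± 1.86 and *Mllt10* at 10.4 ± 1.03 also separated. With the length of the longest transcript in place of merged exons, *Mllt6* at 9.54 CPM per kb came after *Aff1* at 10.2, and the rest of the order held for the means.

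**Figure D1:**
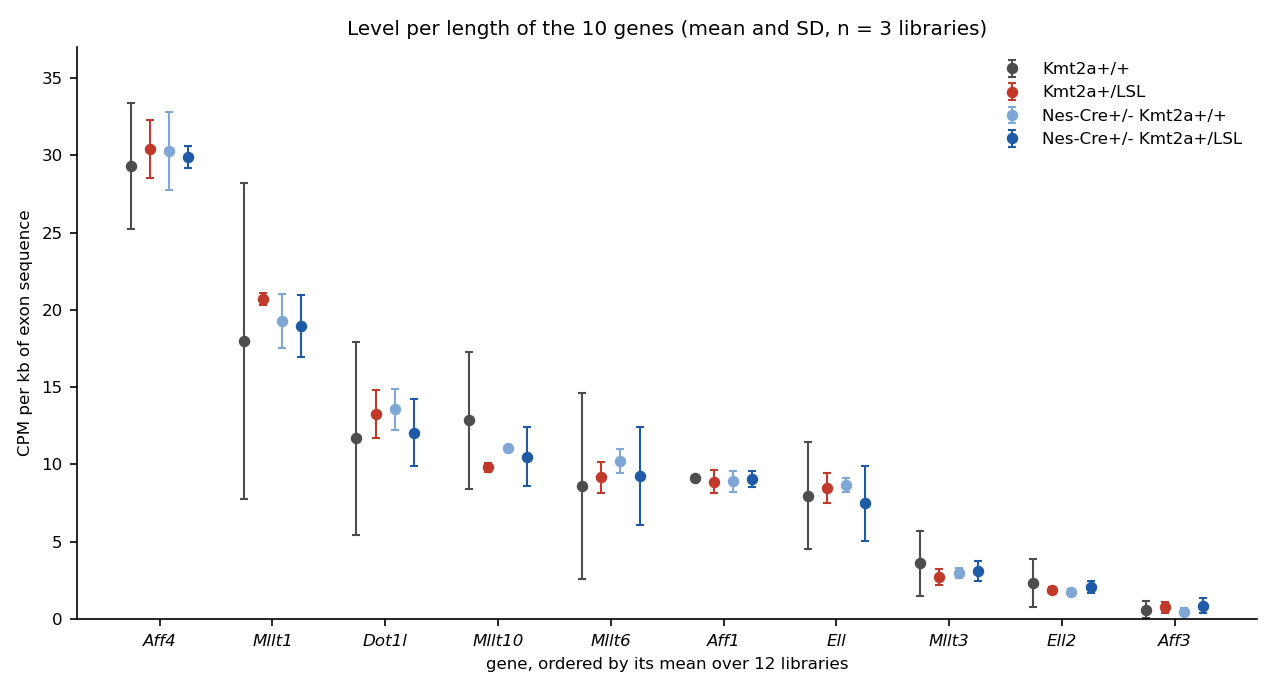
Level of each gene in CPM per kb of merged exon sequence (vertical axis, from 0), with points for the mean and bars for the SD of 3 libraries in each of the 4 genotypes. *Aff4* lies near 30 CPM per kb in all genotypes and *Aff3* below 1, and the longest bars belong to Kmt2a+/+.

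In GRCm38 coordinates, the gene of the methyltransferase is *Dot1l* (ENSMUSG00000061589, chromosome 10, 80755206 to 80795461, plus strand). The genes of its cofactors are *Mllt10* (ENSMUSG00000026743, chromosome 2, 18055237 to 18212388, plus strand) and *Mllt6* (ENSMUSG00000038437, chromosome 11, 97663414 to 97685463, plus strand). The YEATS readers are encoded by *Mllt1* (ENSMUSG00000024212, chromosome 17, 56892611 to 56935415, minus strand) and *Mllt3* (ENSMUSG00000028496, chromosome 4, 87769925 to 88033364, minus strand). The AFF scaffolds are encoded by *Aff1* (ENSMUSG00000029313, chromosome 5, 103692374 to 103855322, plus strand), *Aff3* (ENSMUSG00000037138, chromosome 1, 38177326 to 38664955, minus strand) and *Aff4* (ENSMUSG00000049470, chromosome 11, 53350833 to 53421830, plus strand). The ELL factors are encoded by *Ell* (ENSMUSG00000070002, chromosome 8, 70539457 to 70592858, plus strand) and *Ell2* (ENSMUSG00000001542, chromosome 13, 75706757 to 75772364, plus strand). Shared sequence is small in 9 of the genes, where at most 2.13% of 31-base words of the transcripts also occur in another gene. In *Mllt10* it is 11.2%, most of it (10.5%) shared with *Dnajc1*, which overlaps it on the opposite strand. The sources used here do not say that the counting used strand, so the *Mllt10* counts are less certain than the others.

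DOT1L is the enzyme that methylates lysine 79 of histone H3. Normalized counts of *Dot1l* were 989, 2827 and 3502 in Kmt2a+/+, 2709.7, 2468 and 3113 in Kmt2a+/LSL, 3144, 2719 and 2630.5 with the Cre alone (Nes-Cre+/- Kmt2a+/+), and 2311, 3031 and 2202 with Cre and cassette (Nes-Cre+/- Kmt2a+/LSL). The lowest value, in Kmt2a+/+ replicate 1, and the highest, in Kmt2a+/+ replicate 3, came from the same genotype, and the other 3 genotypes lay between them. The mean was 2439 ± 1300.4 in Kmt2a+/+ and 2764 ± 326 in Kmt2a+/LSL (SD, n = 3 each). This is a log2 fold change of 0.18 (SE 0.35, 95% interval -0.59 to 0.95), with its sign reversed at -0.20 (SE 0.17, 95% interval -0.57 to 0.17) without Kmt2a+/+ replicate 1. Both intervals include 0, and the longer one leaves room for a change of either sign of more than 0.5 on the log2 scale. Adding nestin-Cre to the cassette gave -0.14 (SE 0.35, 95% interval -0.91 to 0.64).

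AF10 and AF17 are related proteins that bind DOT1L, and AF10 is needed for its full activity. Normalized counts of *Mllt10* were 2536, 1540.1 and 1377 in Kmt2a+/+, 1367, 1437 and 1362 in Kmt2a+/LSL, 1561, 1559 and 1578 with the Cre alone (Nes-Cre+/- Kmt2a+/+), and 1720.2, 1551 and 1191 with Cre and cassette (Nes-Cre+/- Kmt2a+/LSL). Kmt2a+/+ replicate 1 was the highest of the 12, and the 3 Nes-Cre+/- Kmt2a+/+ libraries differed by 0.662% (coefficient of variation). At the 1522 to 1658 estimated counts there, counting error alone would give a larger spread for *Mllt10*. In Kmt2a+/LSL against wild type its log2 fold change was -0.39 (SE 0.23, 95% interval -0.88 to 0.11), with the smallest unadjusted p among the 10 genes (edgeR, unadjusted p = 0.114, adjusted p = 1). Without Kmt2a+/+ replicate 1 it shrank to -0.07 (SE 0.15, 95% interval -0.40 to 0.26) (adjusted p = 0.882), and without Kmt2a+/+ replicate 3 it was -0.55 (SE 0.22, adjusted p = 0.683 in edgeR, range over the alternatives 0.683 to 1). Removal of the stop gave 0.10 (SE 0.23, 95% interval -0.40 to 0.59).

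Normalized counts of *Mllt6* were 356, 2455 and 1787 in Kmt2a+/+, 1433, 1736 and 1748 in Kmt2a+/LSL, 1679, 1838 and 1956 with the Cre alone (Nes-Cre+/- Kmt2a+/+), and 1006, 1886 and 2068 with Cre and cassette (Nes-Cre+/- Kmt2a+/LSL). Replicate 1 was the lowest of its genotype in all 4, these 4 libraries were the lowest of the 12, and all 4 genotypes overlapped. *Mllt6* had a log2 fold change of 0.10 (SE 0.51, 95% interval -1.02 to 1.21) in Kmt2a+/LSL relative to Kmt2a+/+ and of -0.37 (SE 0.24, 95% interval -0.91 to 0.17) without Kmt2a+/+ replicate 1, so that this library set its sign. The value for the cells with both Cre and cassette against Kmt2a+/LSL was 0.01 (SE 0.51, 95% interval -1.10 to 1.12).

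ENL and AF9 are close relatives that read acetylated histones through a YEATS domain. Normalized counts of *Mllt1* were 599.9, 2062 and 2406 in Kmt2a+/+, 1961, 1904 and 1964 in Kmt2a+/LSL, 1995, 1731 and 1696 with the Cre alone (Nes-Cre+/- Kmt2a+/+), and 1568, 1839 and 1931 with Cre and cassette (Nes-Cre+/- Kmt2a+/LSL). Apart from Kmt2a+/+ replicate 1 the values lay within a narrow band, with a coefficient of variation of 11.5% over 11 libraries. Normalized counts of *Mllt3* were 1733, 694 and 684 in Kmt2a+/+, 913, 802 and 614 in Kmt2a+/LSL, 963, 809 and 805 with the Cre alone (Nes-Cre+/- Kmt2a+/+), and 1034, 682 and 960.1 with Cre and cassette (Nes-Cre+/- Kmt2a+/LSL). Here Kmt2a+/+ replicate 1 was the highest of the 12, so the paralogs lay at opposite ends in this library. With all 12 libraries, Kmt2a+/LSL differed from Kmt2a+/+ by a log2 fold change of 0.20 (SE 0.37, 95% interval -0.61 to 1.01) for *Mllt1* and -0.42 (SE 0.34, 95% interval -1.16 to 0.33) for *Mllt3*. Without the library both signs turned, to -0.20 (SE 0.13, 95% interval -0.48 to 0.08) and 0.17 (SE 0.21, 95% interval -0.28 to 0.63). With nestin-Cre added to Kmt2a+/LSL, the values were -0.13 (SE 0.37, 95% interval -0.94 to 0.69) for *Mllt1* and 0.20 (SE 0.34, 95% interval -0.55 to 0.95) for *Mllt3*.

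The AFF proteins are the scaffolds on which the super elongation complex is built. Normalized counts of *Aff4* were 10283, 10109.9 and 7919.5 in Kmt2a+/+, 9392, 10498 and 9493 in Kmt2a+/LSL, 8836, 10004 and 10398 with the Cre alone (Nes-Cre+/- Kmt2a+/+), and 9728, 9793 and 9365 with Cre and cassette (Nes-Cre+/- Kmt2a+/LSL). Kmt2a+/+ replicate 3 had the lowest of these, and no genotype stood apart. Normalized counts of *Aff1* were 2055, 2060.1 and 2096 in Kmt2a+/+, 1956, 1882 and 2207 in Kmt2a+/LSL, 1840.5, 2129.6 and 2082 with the Cre alone (Nes-Cre+/- Kmt2a+/+), and 2006, 2184 and 1956 with Cre and cassette (Nes-Cre+/- Kmt2a+/LSL). These were the steadiest values of the 10 genes, with a coefficient of variation of 5.58% over 12 libraries, and Kmt2a+/+ replicate 1 did not stand out in them. Relative to Kmt2a+/+, the log2 fold change in Kmt2a+/LSL was 0.05 (SE 0.15, 95% interval -0.28 to 0.38) for *Aff4* and -0.04 (SE 0.14, 95% interval -0.34 to 0.26) for *Aff1*, and without Kmt2a+/+ replicate 1 it was 0.12 (SE 0.13, 95% interval -0.16 to 0.41) and -0.04 (SE 0.11, 95% interval -0.29 to 0.20). With the stop removed it was -0.03 (SE 0.15, 95% interval -0.35 to 0.30) and 0.02 (SE 0.14, 95% interval -0.27 to 0.32). The intervals of *Aff1* and *Aff4* were the narrowest of the 10 in the 12-library fit and all stayed within 0.5 of 0 on the log2 scale.

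*Aff3*, whose product is the AFF family member also called LAF4, had the lowest counts of the 10 genes. Normalized counts of *Aff3* were 0, 179 and 114 in Kmt2a+/+, 61.1, 118 and 179.6 in Kmt2a+/LSL, 60.4, 46.1 and 115 with the Cre alone (Nes-Cre+/- Kmt2a+/+), and 185, 49.4 and 179 with Cre and cassette (Nes-Cre+/- Kmt2a+/LSL). The estimated count in Kmt2a+/+ replicate 1 was 0, and the other libraries held 45 to 188 counts with no separation between genotypes. Its coefficient of variation over the 11 libraries was 48.5%, the largest of the 10 genes. Its log2 fold change was 0.28 (SE 1.01, 95% interval -1.93 to 2.49) in Kmt2a+/LSL against Kmt2a+/+, -0.29 (SE 0.58, 95% interval -1.56 to 0.97) without replicate 1 of Kmt2a+/+, and 0.20 (SE 1.01, 95% interval -2.00 to 2.41) in Nes-Cre+/- Kmt2a+/LSL against Kmt2a+/LSL. Changes of *Aff3* within these bounds could not be told from the spread between libraries.

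ELL and ELL2 raise the rate of elongation by suppressing pauses of the polymerase. Normalized counts of *Ell* were 304, 682 and 798 in Kmt2a+/+, 599.8, 579 and 713 in Kmt2a+/LSL, 682, 615 and 645 with the Cre alone (Nes-Cre+/- Kmt2a+/+), and 379, 741 and 555 with Cre and cassette (Nes-Cre+/- Kmt2a+/LSL). The lowest values were those of replicate 1 of Kmt2a+/+ and replicate 1 of Nes-Cre+/- Kmt2a+/LSL. Normalized counts of *Ell2* were 975, 364 and 308 in Kmt2a+/+, 417, 496 and 435 in Kmt2a+/LSL, 461, 387 and 399.7 with the Cre alone (Nes-Cre+/- Kmt2a+/+), and 584, 424 and 450 with Cre and cassette (Nes-Cre+/- Kmt2a+/LSL). Kmt2a+/+ replicate 1 was the highest for *Ell2*, and the other Kmt2a+/+ libraries were the lowest. For Kmt2a+/LSL relative to Kmt2a+/+ the log2 fold change was 0.08 (SE 0.33, 95% interval -0.64 to 0.81) for *Ell* and -0.29 (SE 0.37, 95% interval -1.09 to 0.52) for *Ell2*. Without the library, *Ell* was at -0.23 (SE 0.23, 95% interval -0.72 to 0.26) and *Ell2* at 0.42 (SE 0.18, 95% interval 0.02 to 0.82), the sole interval among the 10 genes in this comparison that left out 0 (edgeR, unadjusted p = 0.0422, adjusted p = 0.551, with a range of 0.376 to 1 over the alternatives). After removal of the stop the values were -0.17 (SE 0.33, 95% interval -0.90 to 0.55) for *Ell* and 0.11 (SE 0.36, 95% interval -0.69 to 0.92) for *Ell2*.

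**Figure D2:**
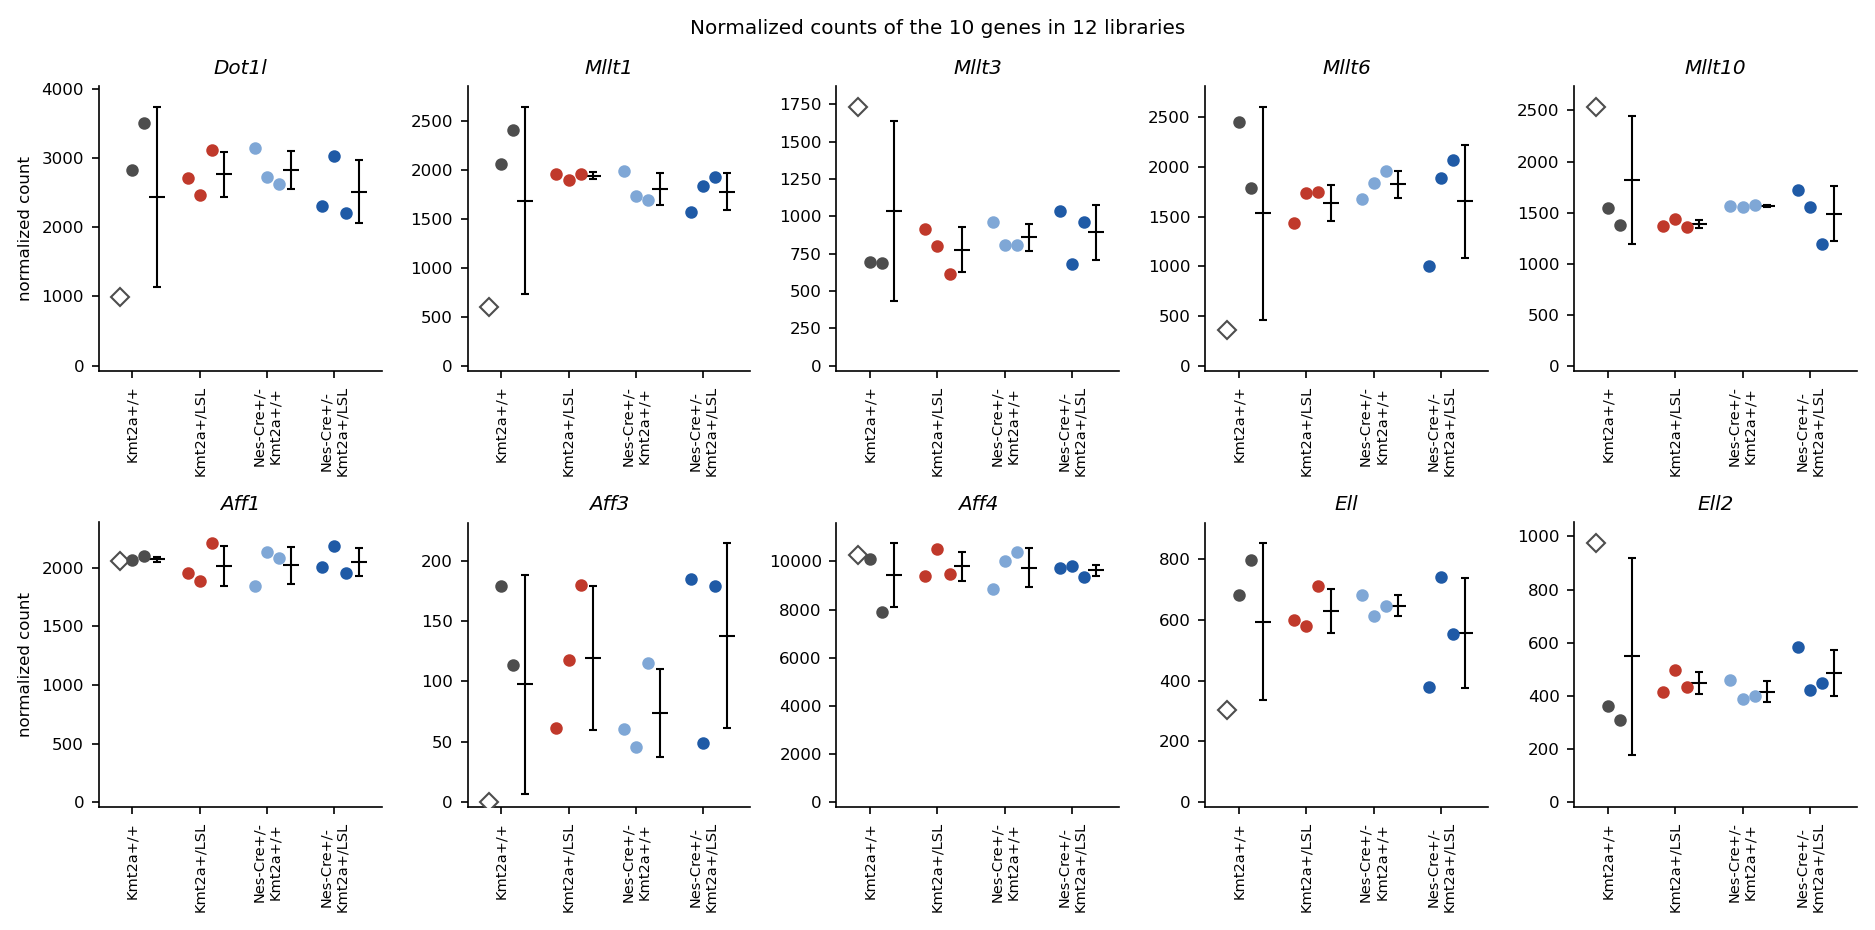
Normalized counts (vertical axes, from 0) of each gene in the 12 libraries by genotype, with the mean and SD of 3 libraries beside the points and an open diamond for Kmt2a+/+ replicate 1. The diamond lies at the bottom for *Dot1l*, *Mllt1*, *Mllt6*, *Aff3* and *Ell*, at the top for *Mllt3*, *Mllt10* and *Ell2*, and among the others for *Aff1* and *Aff4*.

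The position of Kmt2a+/+ replicate 1 went with base composition. For this check, each library's log2 CPM was compared with the median of the other 11, and 12470 genes with at least 1 CPM were divided into 5 classes of equal size by the GC content of their longest transcript. From the GC-poorest to the GC-richest class, the median deviation of Kmt2a+/+ replicate 1 was 0.81, 0.42, -0.08, -0.78 and -1.67. The GC-rich genes of the list, at 56.3% to 59.5%, deviated downward as the genes of their class did: *Dot1l* by -1.46, *Mllt1* by -1.68, *Mllt6* by -2.32 and *Ell* by -1.08. The GC-poor *Mllt3* and *Ell2*, at 41.4% and 40.2%, deviated upward by 1.10 and 1.20, and *Mllt10*, at 46.5%, by 0.72. *Aff1* and *Aff4*, at 50.7% and 44.5%, deviated by -0.004 and 0.08. *Aff4* thus lay below the median of its class, 0.42. *Aff3*, at 52.2% and with 0 counts in this library, deviated by -5.87, against -0.78 for its class. Other libraries showed smaller slopes of this kind, with class medians from -0.45 to 0.36 in Kmt2a+/+ replicate 3 and from 0.35 to -0.41 in Nes-Cre+/- Kmt2a+/LSL replicate 1, in which *Mllt6* and *Ell* were at -0.83 and -0.76. The part of base composition in the values of the 10 genes was not tested beyond a fit with a GC offset per library, which was chosen after seeing the data. With this offset the log2 fold changes in Kmt2a+/LSL against Kmt2a+/+ were -0.02 for *Dot1l*, -0.04 for *Mllt1*, 0.03 for *Mllt6* and -0.13 for *Ell*. They were -0.28 for *Mllt3*, -0.09 for *Ell2*, -0.14 for *Aff1*, 0.06 for *Aff4* and 0.32 for *Aff3*. *Mllt10* stayed at -0.35 (SE 0.15), with an unadjusted p of 0.0377 and an adjusted p of 0.983 in edgeR, where 3.7% of all genes had an unadjusted p under 0.05.

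**Figure D3:**
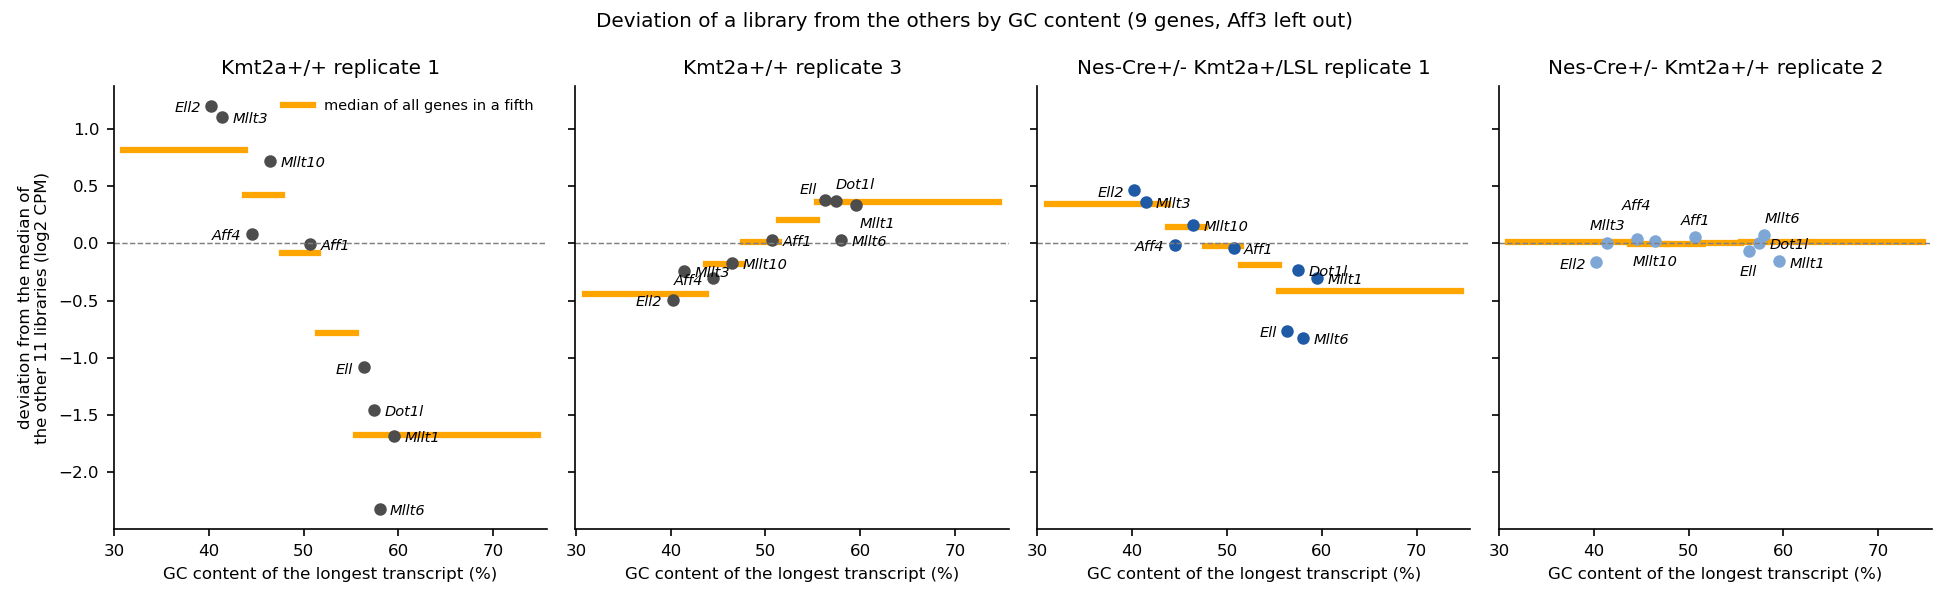
Deviation of a library from the median of the other 11 libraries (vertical axis, log2 CPM) against the GC content of the longest transcript (horizontal axis, %), for 9 of the genes (points) and as the median of all genes in each of 5 classes of GC content (bars), in 4 of the libraries. In Kmt2a+/+ replicate 1 the points run from 1.20 for *Ell2* to -2.32 for *Mllt6*, and in Nes-Cre+/- Kmt2a+/+ replicate 2 they stay near 0. *Aff3* is left out since it had 0 counts in Kmt2a+/+ replicate 1.

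The promoters of the 10 genes, as 250 bases before and 50 after the start of transcription in RefSeq on GRCm38.p6, were all matched. They are shown for *Dot1l* and *Mllt6*, which were low in Kmt2a+/+ replicate 1, and for *Mllt3* and *Ell2*, which were highest there relative to the other libraries, 5′ to 3′ on the strand of the gene, with CG dinucleotides in capitals.
Dot1l (chr10:80754953-80755252, plus strand): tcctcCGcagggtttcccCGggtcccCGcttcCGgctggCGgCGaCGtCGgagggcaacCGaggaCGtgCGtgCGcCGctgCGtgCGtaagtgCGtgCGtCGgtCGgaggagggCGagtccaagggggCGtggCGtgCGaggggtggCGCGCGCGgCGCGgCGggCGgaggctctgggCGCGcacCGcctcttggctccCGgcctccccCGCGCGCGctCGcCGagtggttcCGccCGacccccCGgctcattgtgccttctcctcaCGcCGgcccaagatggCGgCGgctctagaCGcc
Mllt6 (chr11:97663162-97663461, plus strand): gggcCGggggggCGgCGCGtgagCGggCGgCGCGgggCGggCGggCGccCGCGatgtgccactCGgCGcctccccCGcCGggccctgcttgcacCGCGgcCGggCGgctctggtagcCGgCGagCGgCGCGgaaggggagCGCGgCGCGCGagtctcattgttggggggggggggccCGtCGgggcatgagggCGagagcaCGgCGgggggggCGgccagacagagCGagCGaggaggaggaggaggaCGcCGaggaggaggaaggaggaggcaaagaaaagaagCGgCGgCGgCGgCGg
Mllt3 (chr4:88033358-88033657, minus strand): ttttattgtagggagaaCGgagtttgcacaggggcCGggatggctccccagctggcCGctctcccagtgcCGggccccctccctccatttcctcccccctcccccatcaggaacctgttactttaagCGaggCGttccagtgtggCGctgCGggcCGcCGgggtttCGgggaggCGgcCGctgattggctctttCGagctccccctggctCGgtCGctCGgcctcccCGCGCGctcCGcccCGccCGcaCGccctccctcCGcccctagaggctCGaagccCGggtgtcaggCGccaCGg
Ell2 (chr13:75707234-75707533, plus strand): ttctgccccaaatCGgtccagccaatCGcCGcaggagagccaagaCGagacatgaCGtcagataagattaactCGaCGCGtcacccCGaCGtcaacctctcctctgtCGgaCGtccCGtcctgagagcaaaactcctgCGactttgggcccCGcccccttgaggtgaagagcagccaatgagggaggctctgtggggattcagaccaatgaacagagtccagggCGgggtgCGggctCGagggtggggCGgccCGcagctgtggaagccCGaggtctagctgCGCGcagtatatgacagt
The dinucleotide CG, which reads the same on both strands, occurs 49 times in the *Dot1l* promoter and 46 times in that of *Mllt6*, counts that 1.02% and 1.65% of the 32851 RefSeq promoters of this length reach. It occurs 29 times in the *Mllt3* promoter and 23 times in that of *Ell2* (12.9% and 21.5% of all promoters reach this). The median promoter holds 7, as does that of *Mllt10*, while *Aff3*, the gene with the lowest level, had the most with 54. The GC content is 76.3% for *Dot1l*, 79.3% for *Mllt6*, 70.3% for *Mllt3* and 61.3% for *Ell2*, against a median of 52.7%. These letters describe the genes, and their relation to the measured levels was not tested.

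Over the 10 genes as a list, none passed the test between Kmt2a+/LSL and Kmt2a+/+. In edgeR's quasi-likelihood test 0 of the 10 genes had a Benjamini-Hochberg adjusted p under 0.05, where percent called over all 17076 tested genes was 0 as well, and DESeq2's Wald test called 0 of the 10 and 7 of all genes (0.041%). Rescaled to an empirical null, that test called 0 of the 10 and 26 of all genes (0.152%). At an unadjusted p under 0.05 there were 0 of the 10, against 1.79% of all genes. The 3 libraries of each genotype overlapped for all 10, while 2.3% of all genes lay wholly higher and 1.76% wholly lower in Kmt2a+/LSL. The log2 fold change was below 0 for 4 of the 10, with a median of 0.07, against 49.8% of all genes and a median of 0.001. Without Kmt2a+/+ replicate 1, 7 of the 10 were below 0, with a median of -0.13, against 50% and a median of 0 over all genes. In that fit 1 of the 10, *Ell2*, had an unadjusted p under 0.05, where 8.95% of the 16987 genes did, and 0 of the 10 had an adjusted p under 0.05, where 0.0118% did. Replicates 2 and 3 of Kmt2a+/+ did not overlap with Kmt2a+/LSL for *Ell2*, which was higher in Kmt2a+/LSL, and for *Mllt1* and *Mllt6*, which were lower. These are 1 and 2 of the 10, where 14.8% of all genes lay wholly higher and 14.1% wholly lower on such 2 against 3 libraries. Read against these shares of all genes, the counts set none of the 10 apart.

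**Figure D4:**
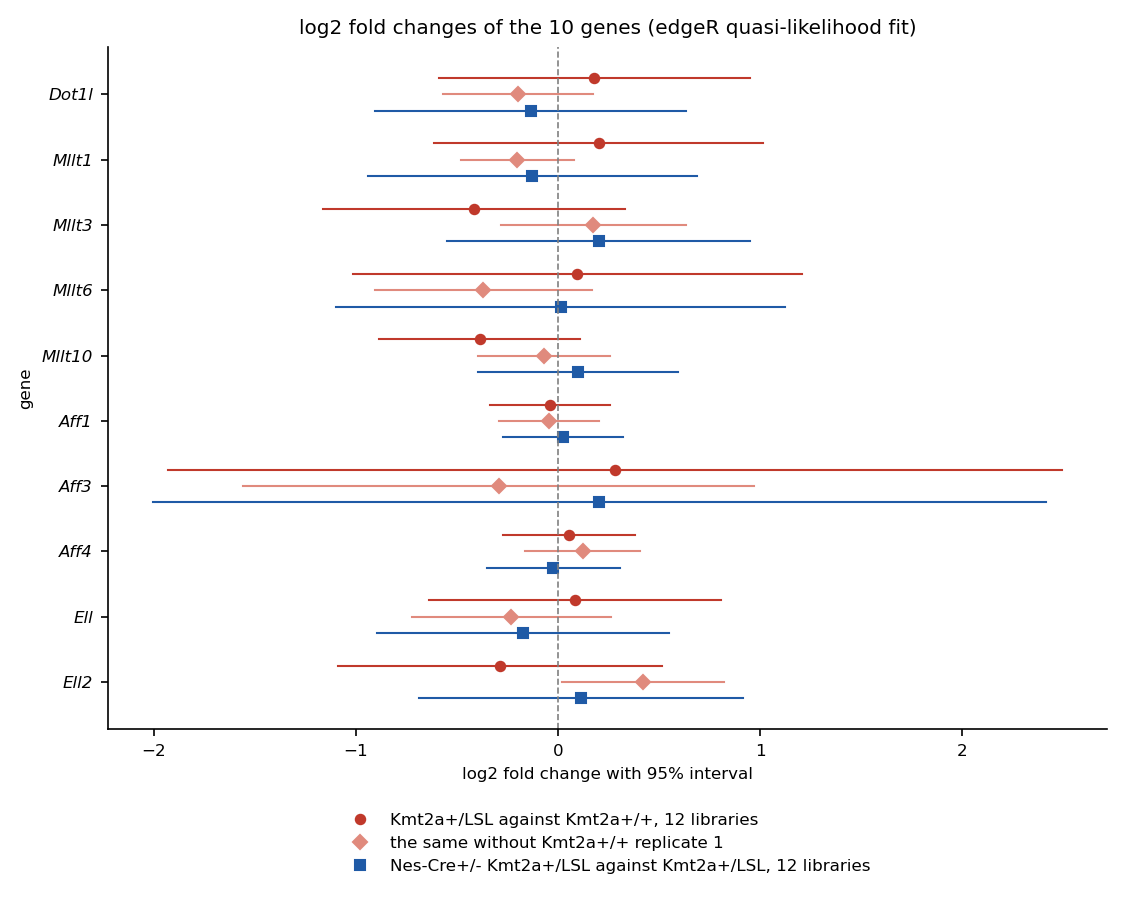
The log2 fold change of each gene (horizontal axis) with its 95% interval in edgeR's quasi-likelihood fit, for Kmt2a+/LSL against Kmt2a+/+ with all 12 libraries, for the same without Kmt2a+/+ replicate 1, and for Nes-Cre+/- Kmt2a+/LSL against Kmt2a+/LSL with all 12 libraries. The spread in both fits of 12 libraries includes Kmt2a+/+ replicate 1. All intervals cross 0 except that of *Ell2* without the library, which runs from 0.02 to 0.82, and the widest are those of *Aff3*.

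In the comparison that asks whether removal of the stop restores expression, Nes-Cre+/- Kmt2a+/LSL against Kmt2a+/LSL, none of the 10 genes passed the test either. With edgeR 0 of the 10 had an adjusted p under 0.05 (percent called over all genes 0) and 0 had an unadjusted p under 0.05 (1.61% of all genes), and DESeq2's Wald test called 0 of the 10 and 7 of all genes (0.041%). With the empirical null it called 935 of all genes (5.48%) and 0 of the 10, and 0 of the 10 had an unadjusted p under 0.05, against 16.1% of all genes. The libraries overlapped for all 10, where 3.54% of all genes lay wholly higher and 3.57% wholly lower with nestin-Cre. Log2 fold changes were below 0 for 4 of the 10 and the median was 0.02, against 49.5% and 0.002 over all genes. The smallest p was that of *Mllt3*, the YEATS gene with the lower level (edgeR, unadjusted p = 0.569, adjusted p = 1, range over the alternatives 0.685 to 1). This comparison and the preceding one share the 3 Kmt2a+/LSL libraries. The SEs given gene by gene come from the fit of all 12 libraries, Kmt2a+/+ replicate 1 included. Fitted on only the genotypes compared, they were smaller. The log2 fold change was then -0.134 (SE 0.161) for *Dot1l*, -0.125 (SE 0.124) for *Mllt1* and 0.015 (SE 0.25) for *Mllt6*. It was 0.115 (SE 0.171) for *Ell2* and 0.205 (SE 0.535) for *Aff3*. In that fit 0 of the 10 had an unadjusted p under 0.05, against 2.82% of all genes.

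Nestin-Cre alone, Nes-Cre+/- Kmt2a+/+ against Kmt2a+/+, served as the control for the recombinase. Of the 10 genes 0 were called with edgeR (0 of all genes, percent called 0), and 0 had an unadjusted p under 0.05 (1.4% of all genes). The libraries overlapped for all 10, against 2.82% of all genes wholly higher and 1.53% wholly lower. There were 5 log2 fold changes below 0, where 47.9% of all genes were below 0. Without Kmt2a+/+ replicate 1 there were 6, and *Mllt1* alone had an unadjusted p under 0.05, where 6.09% of all genes did (percent called by adjusted p, 0). Its log2 fold change was 0.10 (SE 0.37, 95% interval -0.72 to 0.91) with 12 libraries and turned to -0.31 (SE 0.13, 95% interval -0.59 to -0.03) without that library, an interval that left out 0 (edgeR, unadjusted p = 0.0326, adjusted p = 0.733, with a range of 0.660 to 1 over the alternatives). Replicates 2 and 3 of Kmt2a+/+ stood at 2062 and 2406 for *Mllt1*, above the 1696 to 1995 of the 3 Nes-Cre+/- Kmt2a+/+ libraries. On these 2 against 3 libraries *Mllt1* and *Ell* lay wholly lower with the Cre (13.6% of all genes did), though for *Ell* the nearest libraries were all but tied at 681.9 and 681.7, and *Mllt3*, *Mllt10* and *Ell2* wholly higher (15.8% of all genes). The log2 fold changes in that fit were -0.20 for *Ell*, 0.31 for *Mllt3*, 0.10 for *Mllt10* and 0.30 for *Ell2*, each with a 95% interval that included 0.

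Nes-Cre+/- Kmt2a+/LSL was also set against Nes-Cre+/- Kmt2a+/+, where both carry the Cre and differ in the cassette. With edgeR 0 of the 10 genes were called (percent called 0), 0 had an unadjusted p under 0.05 (1.11% of all genes), and all 10 overlapped, against 3.1% of all genes wholly higher and 3.58% wholly lower. The log2 fold change was below 0 for 6 of the 10 (48.9% of all genes). The smallest p belonged to *Aff3*, the gene of lowest count (edgeR, adjusted p = 1). Whether the cassette had another effect in cells that carry the Cre than in cells that lack it was tested as an interaction in the same fit. For 0 of the 10 genes was it called (percent called 0) or at an unadjusted p under 0.05 (1.73% of all genes), and the smallest p was that of *Ell2*. It was again called for 0 of the 10 without Kmt2a+/+ replicate 1 (percent called 0), and 0 had an unadjusted p under 0.05 (3.31% of all genes).

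The genes that work beside the 10 were examined through 4 lists, and none of their members passed the test in any comparison, where percent called over all genes was 0 as well. The list counts with 12 libraries stand against these shares of all genes. In Kmt2a+/LSL against Kmt2a+/+, 1.79% had an unadjusted p under 0.05 and 49.8% were below 0. In Nes-Cre+/- Kmt2a+/LSL against Kmt2a+/LSL the shares were 1.61% and 49.5%. Of 12 other subunits and regulators of the super elongation complex and P-TEFb, 12 were tested, 0 had an unadjusted p under 0.05 in either direction, and 4 were below and 8 above 0 in Kmt2a+/LSL, with a median log2 fold change of 0.09, or 0.02 without Kmt2a+/+ replicate 1. The smallest p there was that of *Aff2*, the remaining AFF gene, with means of 812 ± 310.4 (Kmt2a+/+) and 657 ± 68.7 (Kmt2a+/LSL) normalized counts (SD, n = 3 each) and a log2 fold change of -0.30 (SE 0.24). The value of *Aff2* was 0.06 without Kmt2a+/+ replicate 1, so that its sign turned. In Nes-Cre+/- Kmt2a+/LSL against Kmt2a+/LSL 6 were below and 6 above 0, and *Eaf1*, which encodes a partner of the ELL factors, had the smallest p, with 1080.0 ± 8.54 (Kmt2a+/LSL) and 955 ± 102 (Nes-Cre+/- Kmt2a+/LSL) normalized counts and a log2 fold change of -0.18 (SE 0.15). Of 11 pausing and elongation factors of RNA polymerase II, 11 were tested, with 0 at an unadjusted p under 0.05, 4 below and 7 above 0 in Kmt2a+/LSL. *Supt16*, a subunit of the histone chaperone FACT, stood at 5249.6 ± 2896 (Kmt2a+/+) and 4199 ± 399.6 (Kmt2a+/LSL) normalized counts, a log2 fold change of -0.32 (SE 0.31). Without Kmt2a+/+ replicate 1 it was 0.23, the median of the list moved from 0.02 to -0.13, and 1 of the 11, *Tcea1* at 0.57, had an unadjusted p under 0.05 (named after its value was seen). With nestin-Cre, 7 were below and 4 above 0, and *Nelfa*, a subunit of the pausing factor NELF, had 722 ± 56.3 and 654 ± 51.1 normalized counts and a log2 fold change of -0.14 (SE 0.17).

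All 6 genes of the PAF1 complex, which travels with elongating polymerase, were tested, with 0 at an unadjusted p under 0.05. In Kmt2a+/LSL all 6 were below 0 with a median of -0.13, but without Kmt2a+/+ replicate 1 the median was 0.10 and 1 of the 6, *Cdc73* at 0.59, had an unadjusted p under 0.05 (likewise named after its value was seen). Against the same 2 wild-type libraries, *Cdc73* was at 0.59 with the Cre alone too, again at an unadjusted p under 0.05 (6.09% of all genes there), and the list's median was 0.09. The calls of *Tcea1* and *Cdc73* in Kmt2a+/LSL stand against 8.95% of all genes in that fit, and 0 members of the 4 lists had an adjusted p under 0.05 there. *Leo1* had the smallest p, with 974 ± 435 (Kmt2a+/+) and 754 ± 67.9 (Kmt2a+/LSL) normalized counts and a log2 fold change of -0.37 (SE 0.26), or 0.06 without that library. With nestin-Cre 3 were below and 3 above 0, and *Paf1* stood at 1241 ± 97.3 and 1110.2 ± 182 normalized counts, a log2 fold change of -0.16 (SE 0.18). Of 12 genes known as targets of KMT2A fusions in leukaemia, 9 were tested, *Hoxa5* did not pass the filter on low counts, and *Hoxa9* and *Hoxa10* were not among the genes of the count table. Of the tested genes, *Hoxa7* had only 0 to 11.4 normalized counts. In Kmt2a+/LSL 8 of the 9 were below 0 and 0 had an unadjusted p under 0.05. *Meis1*, a homeobox gene, stood at 846 ± 61.8 (Kmt2a+/+) and 716 ± 40.0 (Kmt2a+/LSL) normalized counts with a log2 fold change of -0.24 (SE 0.16), which was -0.19 without Kmt2a+/+ replicate 1, while the median of the list moved from -0.12 to 0.15. With nestin-Cre 5 were below and 4 above 0, and the cell cycle kinase gene *Cdk6* had 704 ± 158 and 973 ± 176 normalized counts, a log2 fold change of 0.47 (SE 0.31).

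The genes whose log2 CPM followed that of *Dot1l* most closely over the 12 libraries, among 12544 others with a mean of at least 1 CPM, were *Slc9a8* (Pearson r = 0.992), *Kmt5c* (0.990), *Ocel1* (0.990), *Rab34* (0.990) and *Med24* (0.988). All 5 are GC-rich, at 53.9% to 60.0%, as *Dot1l* is at 57.5%. Over 11 libraries, without Kmt2a+/+ replicate 1, r was 0.975, 0.942, 0.963, 0.939 and 0.942. For *Mllt10*, the closest were *Usp25* (r = 0.970), *Fam13b* (0.970), *Ift52* (0.967), *Rpap2* (0.967) and *Mbd5* (0.960), at 45.2% to 48.2% GC, near the 46.5% of *Mllt10*. Without that library r was 0.890, 0.889, 0.891, 0.910 and 0.857, and none of these 5 was still among the 5 closest, which were then *Metap1d*, *Ogt*, *Dmxl2*, *Son* and *Amy1* (r from 0.945 to 0.925). The closest genes of *Mllt10* thus rested on Kmt2a+/+ replicate 1, while 4 of the 5 closest to *Dot1l* were among its 5 closest without it too. Both genes of such a pair are measured in the same libraries, with the same depth, and the values are given as a description.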

How the data were processed

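The 12 mNPC libraries were grouped by the genotype in the labels. The authors pseudoaligned poly(A)-selected reads to the mm10 (GRCm38) transcriptome with kallisto 0.48.0 and summed transcripts to genes with tximport and biomaRt. What the authors deposited are estimated counts, not normalized and already whole numbers, which were used without rounding. DESeq2 1.42.0, also named in the submitters' processing notes, and fdrtool served the authors' own tests, which were not used. How reads from opposite strands were assigned is not given in the sources used here.

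The tools were edgeR 4.0.16, DESeq2 1.42.0 and limma 3.58.1 under R 4.3.3. A gene was kept if it had counts in 2 or more libraries and a total above 10. Counts were scaled by TMM and tested with edgeR's two-sided quasi-likelihood F-test over all 12 libraries with genotype as the sole term, and Benjamini-Hochberg adjusted over all tested genes. The common biological coefficient of variation was 0.368. Standard errors were derived from the F statistic and 95% intervals from its degrees of freedom. Normalized counts are counts over TMM-scaled library sizes, times the mean such size. Log2 CPM used a prior count of 2. Ensembl identifiers were matched to GENCODE symbols for 18735 of 18911 genes. The fits were tested on simulated data.

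The 10 genes, the other lists and the tests were chosen with earlier results of these data known. Named are the 10 genes with fold changes in the comparisons of Kmt2a+/LSL with Kmt2a+/+ and with Nes-Cre+/- Kmt2a+/LSL. In the other comparisons the rule gave fold changes where the 3 libraries of each genotype did not overlap or, for the interaction, at an unadjusted p under 0.05, which held for none. Those given without Kmt2a+/+ replicate 1 were added after seeing the data. *Kmt2a*, the gene of smallest p in each list and the 5 genes most like *Dot1l* and *Mllt10* are also named. Of the alternatives, 21 were planned, and 5 were chosen after seeing the data: the GC offset (loess span 0.5) with and without the replicate block, robust quasi-likelihood, and DESeq2 and its empirical null without Kmt2a+/+ replicate 1. The empirical null stands for the authors' fdrtool step and fits a truncated normal to the central 75% of absolute z-scores.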

Additional observations from a re-analysis of the deposited data

How the results depend on the processing

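The alternatives numbered 17 to 22 per comparison, since each applies to some of them only, and in all of these the number of the 10 genes with an adjusted p below 0.05 was 0. The share of all genes so called was highest with the empirical null, at 5.48% for Nes-Cre+/- Kmt2a+/LSL against Kmt2a+/LSL and 1.41% against Nes-Cre+/- Kmt2a+/+. The lowest such value over the 5 comparisons was 0.376 (*Ell2* in Kmt2a+/LSL against Kmt2a+/+, DESeq2 Wald test without Kmt2a+/+ replicate 1). In Kmt2a+/LSL against Kmt2a+/+, 7 of the 10 directions turned without that library, that of *Aff4* without Kmt2a+/+ replicate 3 or Kmt2a+/LSL replicate 2, and those of *Aff3* and *Ell* without Kmt2a+/LSL replicate 3, and the cause was not tested. The count of genes below 0 rose from 4 to 7 with limma-voom quality weights, with the GC offset (with and without the block) and with DESeq2 or its empirical null on 11 libraries, and ranged from 4 to 7 with each library left out, the 7 without Kmt2a+/+ replicate 1. Of all genes, 58% were below 0 with the GC offset and 55.1% with the block added, against 49.8% in the main fit. The share was 49.3% with limma-voom and 50.7% with DESeq2 or its empirical null on 11 libraries. The count at an unadjusted p under 0.05 was 1 with the empirical null (5.35% of all genes) and with the GC offset with or without the block (3.21% and 3.7%), *Mllt10* each time, and 1 with DESeq2 on 11 libraries (*Ell2*, 9.82% of all genes). With single libraries left out it ranged from 0 to 1, being *Ell2* without Kmt2a+/+ replicate 1 and *Mllt10* without Kmt2a+/+ replicate 3 (6.08% of all genes). For Nes-Cre+/- Kmt2a+/+ against Kmt2a+/+ the count below 0 was 8 with the GC offset, with or without the block. There 54.3% (with the block) and 56.9% (without it) of all genes were below 0, against 47.9% in the main fit. The count at an unadjusted p under 0.05 was 1 with DESeq2 and with the empirical null on 11 libraries (6.93% and 5.17% of all genes), and 0 to 1 with libraries left out, the 1 being *Mllt1* without Kmt2a+/+ replicate 1.

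Log2 fold changes that turned sign in Kmt2a+/LSL against Kmt2a+/+ were, with limma-voom, *Dot1l* -0.10, *Mllt1* -0.11, *Mllt3* 0.13, *Mllt6* -0.38, *Aff3* -0.36, *Ell* -0.17 and *Ell2* 0.35. With DESeq2 or the empirical null on 11 libraries they were *Dot1l* -0.20, *Mllt1* -0.21, *Mllt3* 0.17, *Mllt6* -0.38, *Aff3* -0.30, *Ell* -0.24 and *Ell2* 0.41. With the GC offset they were *Dot1l* -0.015, *Mllt1* -0.04 and *Ell* -0.13, and with the block in addition -0.012, -0.034 and -0.13. With each library left out, the ranges were -0.20 to 0.53 for *Dot1l*, -0.20 to 0.54 for *Mllt1*, -0.64 to 0.17 for *Mllt3*, -0.37 to 0.61 for *Mllt6*, -0.29 to 1.04 for *Aff3*, -0.058 to 0.12 for *Aff4*, -0.23 to 0.35 for *Ell* and -0.57 to 0.42 for *Ell2*.

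In Nes-Cre+/- Kmt2a+/LSL against Kmt2a+/LSL, *Aff3* turned to -0.23 with limma-voom and *Mllt6* to -0.074 with the replicate block. With each library left out, the ranges were -0.18 to 0.27 for *Mllt6*, -0.019 to 0.24 for *Mllt10*, -0.024 to 0.095 for *Aff1*, -0.11 to 0.62 for *Aff3*, -0.054 to 0.035 for *Aff4*, -0.43 to 0.04 for *Ell* and -0.04 to 0.20 for *Ell2*. The other genes kept their sign, at -0.29 to -0.042 for *Dot1l*, -0.19 to -0.044 for *Mllt1* and 0.057 to 0.36 for *Mllt3*.

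Same-numbered libraries of different genotypes had deviations from their genotype means that correlated across genes at 0.130 on average for 18 pairs (-0.129 to 0.556), against -0.0616 over 36 pairs with different numbers. Deviations from a genotype mean cancel out over its libraries, so the latter average is tied to the former. These values do not decide whether the numbers pair the samples, and the labels do not say. The main fit therefore held no pairing, and the replicate block was an alternative. The replicate block left 246 genes at an unadjusted p under 0.05 between Kmt2a+/LSL and Kmt2a+/+, against 306 without it, and 0 of the 10 genes in either fit. Requiring 10 counts in each library removed *Aff3* and kept the other 9 genes. DESeq2 size factors shifted the median of all genes by less than 0.1 on the log2 scale.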
